A study of Mus musculus with 12 samples.

Results

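The probe positions that flank Stat6 on mouse chromosome 10 were described as a neighbourhood of the disrupted gene. Members were the non-control probes whose start lies within 10 Mb of the most distal Stat6 probe (start 127097689, mm9), with Stat6 and a small number of other gene names left out. This gave 391 of the 55681 probes on the array, with 259 gene names, and 146 of them (110 gene names) were bright enough to be tested. The first member starts 9.98 Mb before Stat6 and the last 2.79 Mb after it, at 129883289. That last position is also that of the last probe on the chromosome, so the telomeric side of the window is short. The rule is one of position and uses no measured value, although the region was chosen with earlier results of these data known.

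The arrays compare B cells of 9-week-old female BALB/c mice, taken from the spleen by negative selection, that were wild type or carried the STAT6 knockout (STAT6 ko). All cells, controls included, had been stimulated for 4 days with anti-CD40 antibody (10 µg/ml) and LPS (2 µg/ml), with or without IL-4 at 25 ng/ml. The 4 groups hold 3 arrays each. Wild-type and knockout controls had no IL-4, and wild-type and knockout IL-4 cells had it. The samples were triplicates of purified cells, and nothing says that they came from separate mice, so p-values measure the spread between these samples, which may be technical. How the knockout allele was made and how often it was crossed to BALB/c is not given in the sources used here.

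STAT6 is the transcription factor that the IL-4 receptor activates, and it sets the IL-4 programme of B cells. A gene next to a disrupted one can be read in 2 settings in such a design. With IL-4, a genotype difference includes the loss of the STAT6 response. Without IL-4, the same comparison is made with that cytokine not added. In knockout lines made by gene targeting, DNA around the targeted gene comes from the embryonic stem cells used and stays linked to the allele through later crosses, which is why the neighbours of a targeted gene are commonly looked at. This is background, and the origin of the flanking DNA was not tested here.

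The array measures each transcript with probes of 60 bases. The last 30 bases of the probes behind the main results follow, 5′ to 3′ as the files list them, with mm9 positions and the strand taken from the order of the coordinates. They are shown because each genotype difference rests on the stretch that 1 such probe binds, and because probes of the same gene differ. Capitals mark AATAAA, the canonical polyadenylation hexamer, where it occurs.
Mdm1, first probe (chr10:117585130-117585189, plus): gcatccaatcaggtagctcaagagatgcgt
Mdm1, second probe (chr10:117605934-117605993, plus): ctgctaaatgcagtgaaactgagtctacag
Msrb3 (chr10:120219052-120219111, minus): ctcttccttcatttttctcatactatagta
Rassf3 (chr10:120848118-120848177, minus): aggtttagtgacattgtcatccaacacgct
Srgap1 (chr10:121218051-121218110, minus): ggtgtagctttatAATAAAtatgatagttc
Ppm1h, first probe (chr10:122379536-122379595, plus): gacacttgaattaaagtgaatttgaattgc
Ppm1h, second probe (chr10:122382628-122382687, plus): tgattgtgaaacattgacttttgtaaaccc
Lrig3 (chr10:125452006-125452065, plus): gagacagaatcctaggtttttaaacagact
Xrcc6bp1 (chr10:126305489-126305548, minus): aggcagtattctAATAAAcaaagcatacac

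AATAAA stands in the printed stretch of the Srgap1 and Xrcc6bp1 probes. Across the array it occurs in the last 30 bases of 8.16% of all probes and 10.8% of the probes tested (13 of 146 members tested, 8.9%). The opposite strand of the hexamer occurs in the same stretch of 1.96% of all probes. The median GC content of the 60 bases was 40% for the 9 members called without IL-4 and 43.3% for the members tested, the same as for all probes tested. A match is a description of letters, and what lies in the gene at these positions was not annotated here.

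Values below are log2 processed signal minus the 75th percentile of the array, so a value of 0 is a signal at that percentile, and differences are knockout minus wild type in log2 units with the standard error (SE) of the limma fit. A probe was tested if every array of 1 or more groups showed it well above background. It is called where the Benjamini-Hochberg adjusted p over all 22939 probes tested is under 0.05 and the difference is at least 2-fold. Where a group was at background, a fold is given as a bound ("at least"). These bounds hold under the main processing alone, and other processing gave smaller differences for several of them. Of the 245 members not tested, 202 were well above background on no array and 43 on at least 1. Olfactory receptor genes fill the telomeric end, and of their 63 probes 54 were well above background on no array and 0 were tested. Of the 146 tested, 130 were well above background on all 12 arrays and 16 on fewer, and 6 of these 16 passed through a single group, so that they had to differ between groups. Srgap1, Msrb3 and the second Mdm1 probe passed only through groups of the genotype in which they were higher. Their genotype calls below are thus drawn partly from differences that the filter selected.

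On the arrays, 40.7% to 44.0% of spots were well above background and none was saturated, and 3 arrays per group limit the precision. Stat6 itself was lower in every knockout array. Its most distal probe had values of 3.11, 3.23 and 3.20 in wild-type controls and 1.13, 1.29 and 1.30 in knockout controls (difference -1.94 without and -1.94 with IL-4), and all 3 Stat6 probes stayed well above background in the knockout. All 6 B cell markers reported here (Cd79a, Cd79b, Ms4a1, Pax5, Cd22 and Blnk) were well above background on all 12 arrays. Markers of other cells were partly detected: 4 of 5 T cell, 4 of 5 monocyte or macrophage, 2 of 4 dendritic cell, 1 of 4 granulocyte, 1 of 2 erythroid and 0 of 4 natural killer cell markers on all 12 arrays. Cd8a, Ncr1, Klrb1c, Xcr1 and Ly6g were well above background on none. Wild-type arrays and knockout controls 1 and 2 share a slide, and knockout control 3 lies with the 3 knockout IL-4 arrays on another. With IL-4, slide and genotype therefore cannot be told apart except through knockout control 3, whereas without IL-4 values within the first slide exist.

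Without IL-4, genes on the centromeric side of Stat6 differed between the genotypes in both directions. Srgap1, a GTPase-activating protein of Slit-Robo signalling, was at least 2.09-fold higher in the knockout, with wild-type arrays at background. Lrig3, a transmembrane protein with leucine-rich repeats, was higher by 1.32 ± 0.20 (SE). Xrcc6bp1, named Atp23 today and a metallopeptidase of mitochondria, was lower (-2.15 ± 0.22). Msrb3, a methionine sulfoxide reductase, and Mdm1, a microtubule-binding protein of centrioles, were at least 2.00-fold and 1.93-fold higher in wild type, with knockout arrays at background. In all, 9 of the 146 members were called (6.16%), against 1.04% of all probes tested and 0.931% of the 859 tested probes on the rest of chromosome 10. On chromosome 1 from 130 to 140 Mb, a stretch compared with earlier results of these data known, 21 of 158 tested probes were called (13.3%), so a high share is not particular to the positions around Stat6. Of the 9 members, 4 were higher and 5 lower in the knockout, where 0.724% and 0.314% of all probes were. By gene name the count was 9 of 110 (8.18%), against 1.32% of all gene names. By adjusted p alone, 36 members passed (24.7%), 18 in each direction, against 9.3% of all probes, 4.06% of them higher and 5.24% lower. The median difference of the members was -0.01 and that of all probes -0.04.

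Most of these calls involve dim signals. Only Rassf3 and the expressed sequence C78653 of the 9 called members were well above background on all 12 arrays. Among members bright on all 12 arrays 2 of 130 were called (1.54%), against 0.667% of all such probes. Among the other 16 members 7 were called (43.8%), against 3.64% of all probes of that kind. A probe of that kind was bright on all arrays of at least 1 group and not well above background on at least 1 array. The filter thus favours probes that differ between groups, so the count over such probes describes the members and supports nothing by itself. By adjusted p alone, 28 of the 130 bright members passed (21.5%), against 9.7% of all such probes. With normexp background correction, whose offset shrinks dim differences, 0 members reached 2-fold without IL-4, and all 9 still passed the adjusted p (highest 0.018, limma), with differences of 0.345 to 0.966 in size. The difference was then 0.69 for Srgap1, 0.73 for Lrig3, -0.97 for Xrcc6bp1, -0.44 for Msrb3 and -0.41 for Mdm1. With the authors' deposited gene-level values 2 members were called, and 8 of the 9 passed the adjusted p.

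Srgap1 gave values of -5.26, -5.94 and -5.33 in wild-type controls and -2.75, -2.64 and -2.86 in knockout controls. The knockout arrays lay well above the wild-type arrays, none of which was well above background, so the knockout level was at least 2.09-fold higher (adjusted p 1.08e-05, limma). The bound sets wild-type signals no lower than the dimmest signal well above background on the same array. It is tied to the main processing: the log2 difference without IL-4 was 0.69 with normexp and 0.298 with the authors' deposited values, both below it. With IL-4 the values were -6.08, -5.69 and -5.94 in wild type and -3.05, -2.96 and -3.01 in the knockout, at least 1.64-fold higher (adjusted p 2.05e-07). The groups did not overlap in either comparison. The fitted interaction of genotype and IL-4 was 0.14 ± 0.23 (adjusted p 0.666, limma). It rests on wild-type values at background, so whether IL-4 changed the genotype difference cannot be told. The other 2 Srgap1 probes were well above background on no array.

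Xrcc6bp1 gave -1.04, -0.91 and -1.16 in wild-type controls and -3.82, -2.76 and -2.99 in knockout controls, a 4.44-fold lower mean (adjusted p 0.000839). With IL-4 it gave -1.10, -0.98 and -0.98 in wild type and -3.09, -3.07 and -2.74 in the knockout, 3.84-fold lower (adjusted p 4.64e-05). All knockout arrays were lower than all wild-type arrays, and 5 of the 6 knockout arrays were still well above background. At 0.792 Mb from Stat6 it was the called member closest to Stat6 on the centromeric side without IL-4.

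Msrb3 gave -2.69, -2.51 and -2.36 in wild-type controls and -4.93, -4.87 and -3.61 in knockout controls. Knockout control 3, the array on the other slide, was the highest of the knockout arrays, and none of them was well above background. The wild-type level was at least 2.00-fold higher (adjusted p 0.00485), and within the first slide the measured difference was -2.39 (adjusted p 0.000222). With IL-4 the values were -1.77, -1.69 and -1.49 in wild type and -5.71, -5.80 and -5.60 in the knockout. Under the main processing the wild-type level was thus at least 4.29-fold higher (adjusted p 1.14e-06, limma). The log2 difference was smaller than this bound with normexp (-1.19) and with the authors' deposited values (-1.605).

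Lrig3 gave -2.70, -3.08 and -2.76 in wild-type controls and -1.47, -1.75 and -1.35 in knockout controls, 2.50-fold higher in the knockout (adjusted p 0.00613). With IL-4 it gave -3.49, -3.65 and -4.35 in wild type and -1.74, -1.80 and -1.73 in the knockout (4.20-fold, adjusted p 1.29e-05). Only 1 of the wild-type IL-4 arrays was well above background, so the fold is uncertain, and on the log2 scale the difference of 2.07 was 0.95 with normexp and 1.11 with the authors' deposited values. The groups did not overlap with or without IL-4.

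Mdm1 is measured by a pair of tested probes 20804 bases apart. The second gave -2.68, -2.69 and -2.55 in wild-type controls and -4.98, -4.06 and -4.46 in knockout controls, none of which was well above background, so the wild-type level was at least 1.93-fold higher (adjusted p 0.00965). With IL-4 it gave -2.80, -2.56 and -2.42 in wild type and -3.07, -3.92 and -4.40 in the knockout, a difference of -1.21 ± 0.31 (adjusted p 0.00823). That call was lost with slide as a block (-1.26, adjusted p 0.138). The first probe was lower in the knockout by a smaller amount without IL-4 (-0.55 ± 0.12, adjusted p 0.0281), and its difference with IL-4 was -0.27 ± 0.12 (adjusted p 0.0935).

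**Figure D1:**
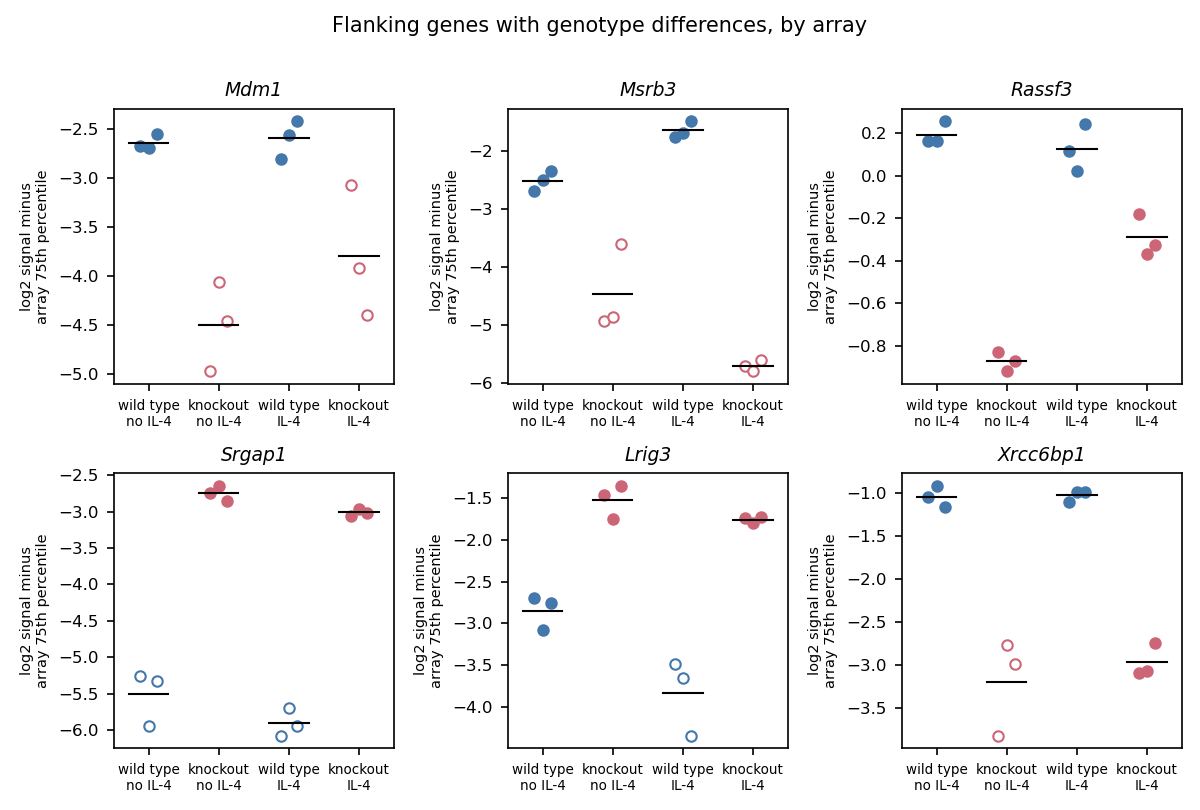
Log2 processed signal minus the array's 75th percentile (vertical axis) for 6 flanking genes on each of the 12 arrays, by genotype and IL-4; black bars are group means of 3 arrays and open points mark groups in which fewer than 3 arrays were well above background. In each panel the knockout arrays lie on 1 side of the wild-type arrays of the same treatment; Mdm1 shows its second probe.

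The other 4 members called without IL-4 did not reach both limits with it. Rassf3, of the Ras-association domain family, gave 0.16, 0.16 and 0.26 in wild-type controls and -0.83, -0.92 and -0.87 in knockout controls (-1.07 ± 0.07, adjusted p 2.4e-05), with all arrays well above background. With IL-4 its difference was -0.42 ± 0.07 (adjusted p 0.000673), smaller than without it (interaction 0.65 ± 0.10, adjusted p 0.000548). Gls2, a mitochondrial glutaminase, gave -3.31, -3.95 and -3.75 in wild-type controls and -2.47, -1.79 and -1.12 in knockout controls (1.88 ± 0.44, adjusted p 0.0324). Its knockout arrays spread widely, and the call was lost with slide as a block (1.54, adjusted p 0.115) and without any of wild-type controls 1, 2 and 3 or knockout controls 2 and 3. C78653 was higher by 1.11 ± 0.30 (adjusted p 0.0454), and its call was lost within the first slide (1.14, adjusted p 0.136), with slide as a block (1.14, adjusted p 0.12) and without any of 9 of the 12 arrays.

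Ppm1h, a protein phosphatase, is measured by probes 3092 bases apart that went opposite ways. The second gave -3.19, -3.16 and -3.09 in wild-type controls and -5.60, -5.85 and -3.72 in knockout controls (-1.91 ± 0.47, adjusted p 0.0348). Knockout control 3 was the only knockout array well above background, and within the first slide the difference was -2.58 (adjusted p 5.05e-05). The first gave -2.62, -2.52 and -2.39 in wild-type and -1.78, -1.93 and -1.59 in knockout controls, higher by 0.74 ± 0.16 (adjusted p 0.0252). With IL-4 the differences were -1.19 ± 0.47 for the second (adjusted p 0.0566) and 0.95 ± 0.16 for the first (adjusted p 0.000618). The call of the second probe was lost in 8 of the 12 fits that left out an array, each wild-type array among them, with an adjusted p of up to 0.114.

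Below the 2-fold limit, several neighbours passed the adjusted p without IL-4. Pa2g4, a regulator of proliferation, was lower at both of its probes (-0.60 ± 0.06, adjusted p 0.000791, and -0.42 ± 0.09, adjusted p 0.0218). Xpot, the exportin for tRNA, was lower at both probes (-0.72 ± 0.17 and -0.36 ± 0.08), and stayed lower with IL-4 (-0.63 ± 0.17 and -0.54 ± 0.08). Cand1, an exchange factor for cullin ubiquitin ligases, was lower at 1 probe (-0.56 ± 0.08, adjusted p 0.00447) and gave -0.09 ± 0.05 at the other (adjusted p 0.268). Arhgef25, a guanine nucleotide exchange factor, was higher by 0.91 ± 0.16 (adjusted p 0.0128).

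With IL-4, 12 members were called (8.22%), 6 higher and 6 lower in the knockout, against 9.53% of all probes tested, 4.67% of them higher and 4.87% lower. The share is near that of the whole array. By adjusted p alone 70 passed (47.9%), 39 higher and 31 lower, against 48.8% of all probes (28.4% higher and 20.4% lower). Beside the 5 genes above, the called members were Cpm, Tbc1d30, LOC100504608, Cd63, Itga7 and Tespa1, the last at both of its probes. Without IL-4 the differences of these genes lay between -0.40 and 0.62, and among them only Cpm (-0.18 ± 0.05, adjusted p 0.0389) and Cd63 (0.35 ± 0.08, adjusted p 0.0297) passed there by adjusted p.

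The genotype comparisons with and without IL-4 share no array. Both use the same spread, estimated over all 12 arrays, so their tests are not independent. Called in both with the same sign were 5 members, Mdm1, Msrb3, Srgap1, Lrig3 and Xrcc6bp1 (3.42%), against 0.366% of all probes tested and 12.0% (19 of 158) in the same stretch of chromosome 1. All 5 belong to the 16 members that were not bright on every array (31.2% of these), where 1.75% of such probes on the whole array were called in both. The filter favours probes of that kind that differ between groups, so this count too supports nothing by itself. Among the 130 members bright on all arrays the count was 0, against 0.169% of such probes, and 8 passed by adjusted p alone in both (6.15%), against 2.92% of such probes. Over all tested members, 14 passed by adjusted p alone in both with the same sign (9.59%), against 2.87% of all probes. Beyond the genes called, these were Rassf3, both Xpot probes, the first Ppm1h probe, Mbd6, Stac3, Nab2 and 2 transcripts named by accession or position. The difference had the same sign in both comparisons for 83 of 146 members (56.8%), 47.7% of all probes and 49.6% of the tested probes on the rest of chromosome 10. With slide as a block, 4 of the 5 genes were called in both, Mdm1 being the exception.

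**Figure D2:**
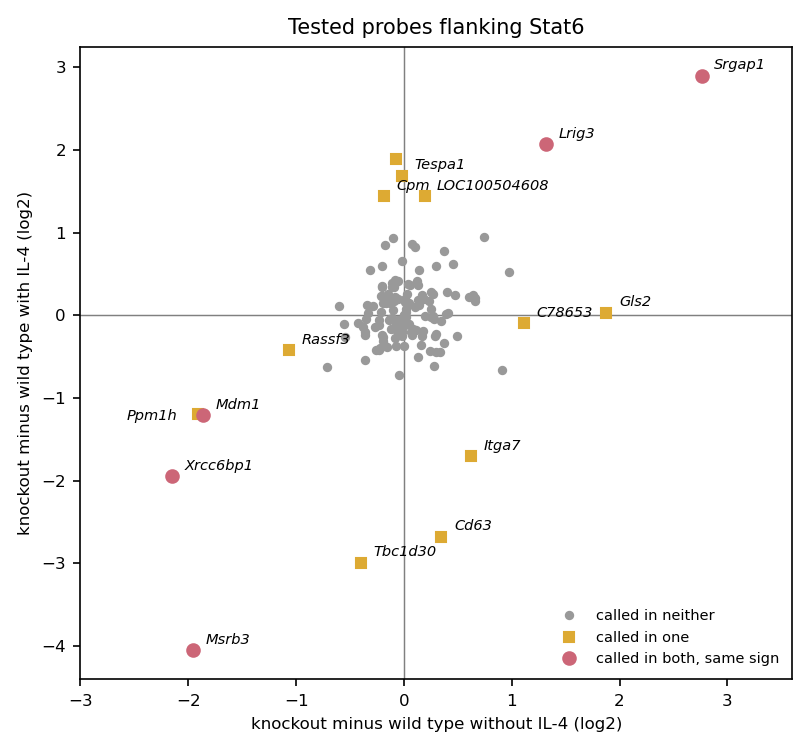
Knockout minus wild type without IL-4 (horizontal, log2) against the same with IL-4 (vertical, log2) for the 146 tested probes flanking Stat6, each point 1 probe, with squares for probes called in 1 comparison and large circles for those called in both. The 5 probes called in both lie from -4.05 to 2.90 with IL-4, and most other probes lie near 0 on both axes.

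Along the chromosome, the called members lay mostly before Stat6. Of the 9 called without IL-4, 8 were among the 83 tested centromeric members (9.64%) and 1, Gls2, among the 63 telomeric members (1.59%), and all 5 called in both were centromeric. By adjusted p alone without IL-4, 28 centromeric (33.7%) and 8 telomeric members (12.7%) passed. In windows of 2 Mb from -10 Mb, the tested members numbered 14, 15, 13, 2, 39, 61 and 2, and 2, 2, 2, 0, 2, 1 and 0 of them were called without IL-4. All windows but those from -2 to 0 Mb and from 0 to 2 Mb hold under 20 tested members, so they are thin and no trend with distance can be read from them. The median absolute difference without IL-4 was 0.32, 0.30 and 0.23 in the first 3 windows, 0.24 in the last 2 Mb before Stat6 and 0.14 in the first 2 Mb after it, against 0.14 over all probes. No test of position was made.

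**Figure D3:**
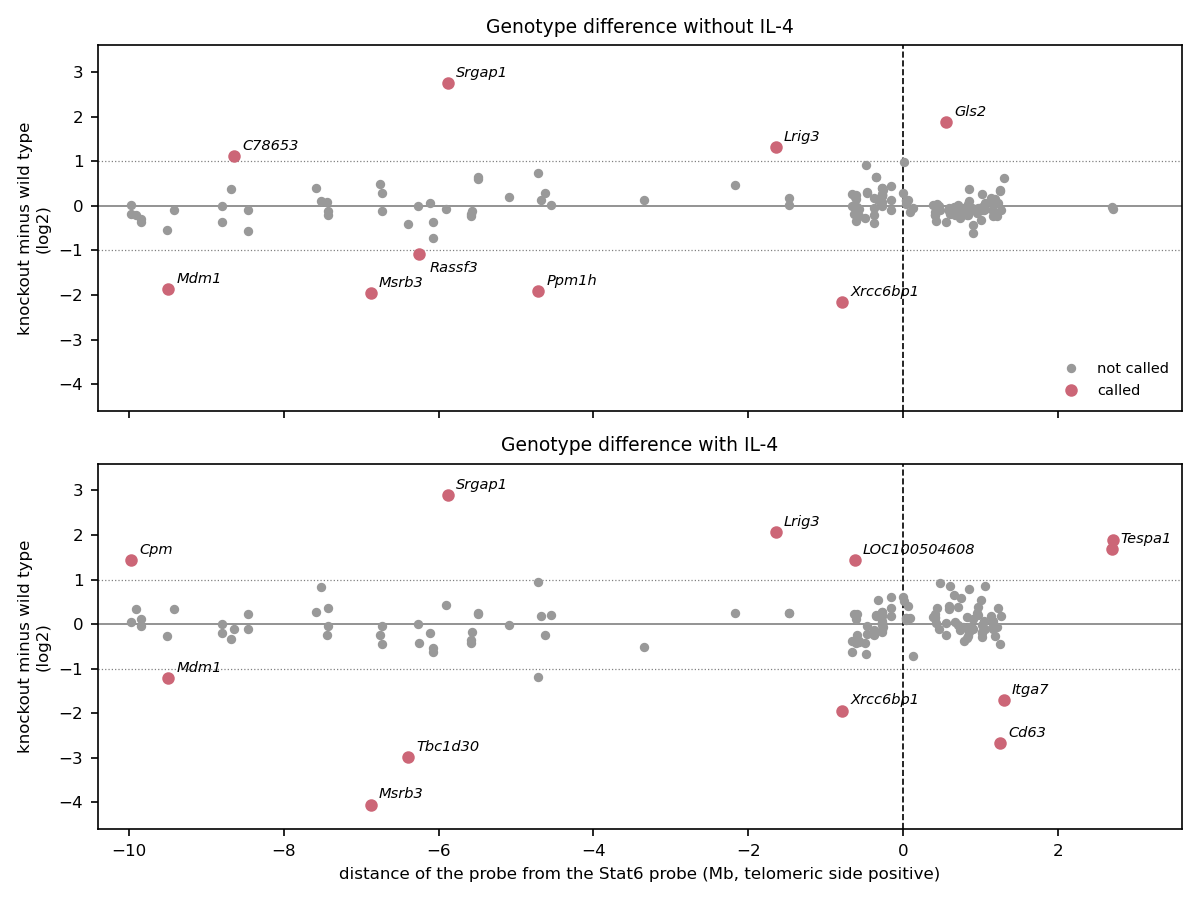
Knockout minus wild type (vertical, log2) without IL-4 (upper panel) and with IL-4 (lower panel) for the 146 tested probes against their distance in Mb from the Stat6 probe (dashed line, telomeric side positive). Red points were called and dotted lines mark the 2-fold limit; 8 of the 9 points called without IL-4 lie on the centromeric side.

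Within 1 Mb of Stat6, 2 of 78 tested members were called without IL-4 (2.56%, against 1.04% of all probes), Xrcc6bp1 and Gls2. With IL-4, Xrcc6bp1 and LOC100504608 were called there (2.56%, against 9.53%). LOC100504608 was at least 1.27-fold higher in the knockout, with no wild-type IL-4 array well above background. The median absolute difference of these 78 was 0.19 without IL-4. The nearest, a probe of Nab2, which encodes a corepressor of EGR transcription factors, starts 320 bases from the Stat6 probe and lies on the opposite strand. It gave 2.88, 2.94 and 3.02 in wild-type controls and 3.22, 3.25 and 3.24 in knockout controls, higher in the knockout without IL-4 (0.29 ± 0.06, adjusted p 0.02) and more so with it (0.60 ± 0.06, adjusted p 1.32e-05; interaction 0.31 ± 0.08, adjusted p 0.0139). The second Nab2 probe gave 0.98 ± 0.28 without IL-4 (adjusted p 0.0561), with knockout control 1 far above the other 2 arrays. The 3 probes of Tmem194, named Nemp1 today and a nuclear envelope protein, gave 0.05 to 0.14 in both comparisons and passed in neither. On the centromeric side, Stac3, an adaptor protein known from muscle, was higher by 0.46 ± 0.09 without IL-4 (adjusted p 0.0208) and by 0.62 ± 0.09 with it (adjusted p 0.000282), and the 2 probes of R3hdm2 gave -0.10 and 0.13 without IL-4 and 0.19 and 0.36 with it. At the other border, the members just inside were Cpm, Mdm2 and Nup107, with -0.18, 0.02 and -0.21 without IL-4, and the 3 tested probes just outside belong to 1 transcript and gave 0.26 to 0.30.

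The interaction of genotype and IL-4, taken as the knockout response minus the wild-type response, was called for 12 members (8.22%), against 10.5% of all probes tested. It was higher for 5 and lower for 7, where 4.97% and 5.52% of all probes were. Cd63, a tetraspanin of late endosomes, gave 2.51, 2.59 and 2.51 in wild-type controls and 5.02, 5.05 and 4.998 in wild-type IL-4 cells, a 5.60-fold rise (2.49 ± 0.08, adjusted p 2.47e-09). In the knockout it gave 2.76, 2.81 and 3.08 without IL-4 and 2.33, 2.29 and 2.41 with it (-0.54 ± 0.08, adjusted p 0.000462). Its response thus rose in wild type and fell in the knockout, and the interaction was -3.03 ± 0.11 (adjusted p 2.16e-08).

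Tbc1d30, a GTPase-activating protein for Rab proteins, gave -1.85, -2.08 and -1.88 in wild-type controls and 0.05, 0.02 and -0.01 with IL-4, a 3.88-fold rise. In the knockout it gave -2.57, -2.37 and -2.07 without IL-4 and -3.22, -2.99 and -2.72 with it (interaction -2.59 ± 0.20, adjusted p 4.76e-06). Arhgef25 rose in wild type by 1.16 ± 0.16 (adjusted p 0.00015) and gave -0.42 ± 0.16 in the knockout (adjusted p 0.0648), so it was higher in the knockout without IL-4 and lower with it (-0.67 ± 0.16, adjusted p 0.00634). Itga7, an integrin chain, was well above background on all 3 wild-type IL-4 arrays (-3.01, -3.09 and -3.18) and on only 1 of the other 9, and its wild-type IL-4 level was at least 1.64-fold above wild-type controls and at least 1.58-fold above knockout IL-4 cells. Msrb3 was 1.82-fold higher with IL-4 in wild type (0.87 ± 0.29, adjusted p 0.0256), and with both knockout groups below background it has no fold there.

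Other members fell with IL-4 in wild type. Tespa1, which acts in T cell receptor signalling in thymocytes, gave 2.93, 2.89 and 2.96 in wild-type controls and 1.55, 1.47 and 1.58 with IL-4 at its brighter probe (-1.40 ± 0.05, adjusted p 9.76e-09). In the knockout it gave 2.87, 2.98 and 2.88 without and 3.21, 3.17 and 3.28 with IL-4, a small rise (0.31 ± 0.05, adjusted p 0.00139), and the dimmer probe gave a like pattern (interaction 1.70 ± 0.08 and 1.96 ± 0.13). Cpm, carboxypeptidase M, gave 3.45, 3.44 and 3.42 in wild-type controls and 1.73, 1.69 and 1.74 with IL-4, a 3.30-fold fall, and 3.32, 3.26 and 3.18 without and 3.13, 3.16 and 3.18 with IL-4 in the knockout (interaction 1.62 ± 0.07, adjusted p 4.06e-08). Rbms2, an RNA-binding protein, fell in wild type (-0.51 ± 0.07) and rose in the knockout (0.52 ± 0.07), both under 2-fold, with an interaction of 1.03 ± 0.10 (adjusted p 2.67e-05).

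**Figure D4:**
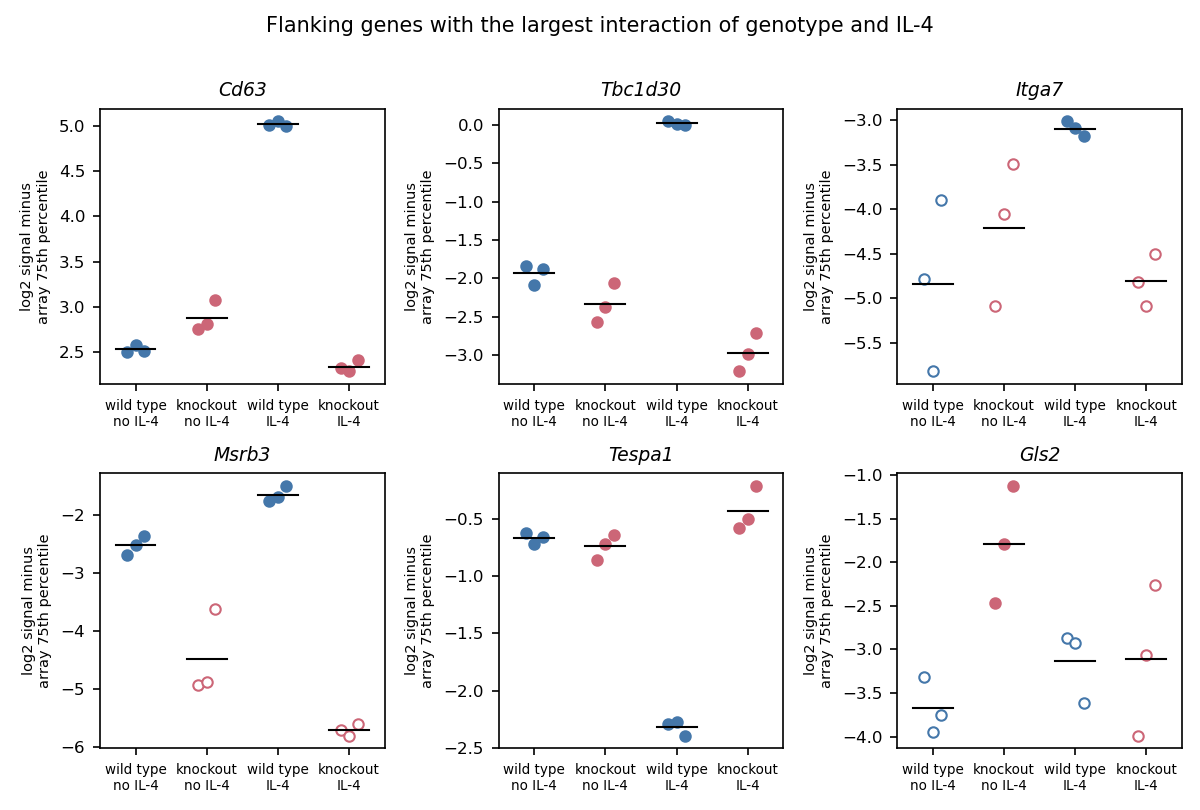
Log2 processed signal minus the array's 75th percentile (vertical axis) on each of the 12 arrays for the 6 flanking genes with the largest called interaction, 1 probe per gene, by genotype and IL-4; black bars are group means of 3 arrays and open points mark groups in which fewer than 3 arrays were well above background. Cd63 lies near 5 only in wild-type IL-4 arrays, and Tespa1 (its dimmer probe) is lowest there.

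In wild type, 11 members were called for the IL-4 response (7.53%), against 12.3% of all probes tested. Of these 5 were higher (Cd63, Tbc1d30, Itga7, Arhgef25 and Mon2) and 6 lower (Cpm, both Tespa1 probes, LOC100504608, Apof and Pmel), where 5.73% and 6.61% of all probes were. In the knockout, 6 were called (4.11%), against 3.27% of all probes, and these were lower with IL-4 (2.41% of all probes), with 0 higher (0.854% of all probes). They were Apof, Gls2, Rdh5, Pmel, C78653 and Msrb3, of which Msrb3 was below background in both knockout groups, so that its call gives no change of level. The knockout IL-4 arrays share their slide with only 1 of the knockout controls. With slide as a block, Rdh5 was under 2-fold (-0.97, adjusted p 0.00234) and C78653 was no longer called (-1.02, adjusted p 0.113). Pmel, a melanosome protein, fell with IL-4 in both genotypes, from -0.15, 0.13 and 0.02 to -1.81, -1.79 and -2.21 in wild type (-1.93 ± 0.13) and from 0.24, -0.09 and 0.06 to -1.03, -0.98 and -1.21 in the knockout (-1.14 ± 0.13, adjusted p 0.000101). The fall was smaller in the knockout (interaction 0.79 ± 0.18, adjusted p 0.00614). Apof, an apolipoprotein, was tested through wild-type controls alone, and no array of either IL-4 group was well above background. Its level without IL-4 was at least 1.58-fold above that with it in wild type and at least 1.43-fold in the knockout. Both calls were lost with normexp and with the authors' deposited values. Rdh5, a retinol dehydrogenase, fell in the knockout by 1.20 on the log2 scale (adjusted p 6.6e-05) and in wild type by 0.42 (adjusted p 0.0167).

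The members were also grouped loosely by role, and counted by adjusted p alone. Mdm1, a centriole protein, stands in the p53 and cell cycle list. Gdf11, which is not a transcription factor, stands in that of transcription factors and chromatin. The median differences of all probes were -0.04 without and 0.06 with IL-4. The shares of all probes to set beside the counts are 4.06% higher and 5.24% lower without IL-4 and 28.4% higher and 20.4% lower with it, and no list was tested. Among cytokine and innate signalling genes, the probes of Ifng, Il22 and Il23a were too dim to be tested. Of the 4 tested probes (median difference 0.02 without and 1.26 with IL-4), 0 passed without IL-4, and with it 3 were higher, both Tespa1 probes and Irak3, an inhibitor of Toll-like receptor signalling (0.83 ± 0.06, adjusted p 8.97e-07), and 1, the kinase Tbk1, was lower (-0.21 ± 0.05). The median of this list with IL-4 lies between the value of Irak3 and those of the 2 Tespa1 probes, and Tespa1 is known from T cell receptor signalling. Of 14 tested probes for p53, cell cycle and DNA repair genes, 4 were lower without IL-4, those of Mdm1 and Pa2g4, and with it 3 were higher, of the fork protection factor Timeless (0.41 and 0.35) and the repair protein Nabp2 (0.59), and 2 lower (medians -0.10 and 0.02). Mdm2, the p53 ubiquitin ligase, gave 0.02 ± 0.04 and 0.04 ± 0.04.

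Of 14 probes for RNA processing and translation (medians -0.19 and 0.04), 4 were lower without IL-4, of Xpot, Sarnp and Mettl1, and with it 5 were higher, among them Rbms2 (0.93) and the deadenylase Pan2 (0.65), and 3 lower. Of 13 probes for transcription factors and chromatin (medians -0.06 and 0.19), 1 was higher (Nab2) and 1 lower (Mbd6) without IL-4, and 5 were higher and 2 lower with it. Of 17 for the ubiquitin system and protein quality (medians -0.09 and -0.05), 1 was higher, that of Dtx3, and 2 lower without IL-4, those of Msrb3 and Cand1, and 3 were higher and 5 lower with it. In the signalling and small GTPase list, 2 of 13 tested probes were called higher (Srgap1 and Lrig3) and 2 lower (Rassf3 and the second Ppm1h probe) without IL-4, where 1.04% of all probes were called. Of the 4, Rassf3 alone was bright on all arrays, and the Ppm1h call was lost in 12 of 23 alternatives and turned in 1. By adjusted p alone 6 of these 13 were higher and 3 lower without IL-4 and 5 each with it (medians 0.14 and -0.11). Of 17 probes for membrane traffic and cytoskeleton (medians -0.04 and -0.18), 1 was higher without IL-4 (Cd63) and 7 were lower with it, among them Rab5b (-0.21), Myl6 (-0.31) and Dctn2 (-0.23). Of 11 metabolic enzyme probes (medians -0.11 and 0.001), 1 was higher and 2 lower without IL-4. With it 4 were higher, such as citrate synthase Cs (0.39) and sulfite oxidase Suox (0.55), and 3 lower. The 4 higher ones include Apof, which is no enzyme. No array of either IL-4 group was well above background for it, so its 0.84 is no measured difference. The 2 tested eye and pigment genes, Pmel and Rdh5, passed only with IL-4, higher by 0.86 and lower (-0.45).

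Of 27 gene names with several tested probes, Mdm1 and Ppm1h were mixed, with a probe called and another not. The median range between probes of a gene was 0.18 without and 0.19 with IL-4, and 2 genes had a range over 1 without IL-4.

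Summed marker levels, in multiples of the array's 75th percentile, moved between the groups and their part in the differences was not tested. B cell markers summed to 1063 to 1091 in wild-type and 963 to 1011.5 in knockout controls. T cell markers summed to 32.9 to 35.1 and 35.2 to 40.5, dendritic cell markers to 110 to 134 and 135 to 145, and erythroid markers to 0.913 to 1.22 and 1.72 to 1.88. Most of the T cell sum came from Lck (means 5.01 and 5.12, log2), and the other T cell markers were far dimmer. With IL-4 the genotypes overlapped for T cell (31.8 to 33.1 and 31.8 to 33.3), dendritic (121 to 129 and 126 to 146) and erythroid markers (0.995 to 1.06 and 0.991 to 1.43). B cell markers then summed to 1113 to 1135.5 and 1014 to 1065. Monocyte or macrophage markers overlapped without IL-4 (28.2 to 29.8 and 26.9 to 29.4), and with IL-4 summed to 19.0 to 19.6 in wild type and 35.7 to 38.8 in the knockout. With IL-4 the higher sum came from Emr1 (mean 3.58 in wild type and 4.91 in the knockout, log2), whereas Csf1r (-0.60 and -0.79), Itgam (2.59 and 2.48) and Cd14 (-0.59 and -1.45) had lower means in the knockout, and Fcgr1 was well above background on 1 array. In such bulk samples, fewer cells of a type and less RNA per cell cannot be told apart.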

How the data were processed

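Cy3 signals of 12 Agilent 1-colour arrays were analysed, 3 for each of 4 groups taken from the labels. The authors extracted the spots with Agilent Feature Extraction 10.7.3.1 (mm9 positions), per the file headers, and its processed intensity of each spot is background subtracted and detrended (dim spots carry a surrogate value). Folds of dim probes are therefore imprecise. A gene-level file of log2 values that the authors deposited, quantile normalised after background subtraction per its first line, served as an alternative.

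The log2 intensity minus the array's 75th percentile was averaged over spots of a probe, without outlier-flagged spots, and limma 3.58.1 (R 4.3.3, with jsonlite 2.0.0 and data.table version 1.17.8) fitted the group means over all 12 arrays and 22939 probes. The fit was tested on simulated data. The 5 contrasts were adjusted by Benjamini-Hochberg over all probes. The samples were not paired by number. Of the members, 250 matched a RefSeq name, of which 13 carry another symbol today. Python 3.11.15 with pandas 2.3.3 and matplotlib 3.10.9 drew the figures.

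The window held 416 probes before gene names were left out, which are not reported here. Members and gene lists were chosen with earlier results of these data known. Named genes are Stat6, members called in both genotype comparisons, the largest calls per direction, up to 5 calls per direction in the other contrasts, up to 4 members per list with the smallest adjusted p, the 5 tested members nearest Stat6 on each side, and genes whose probes disagree. Other named members were chosen after their values were seen. Alternatives were 14 settings of scaling, background, filter, variance, slide, replicates and probes. Of the cell type markers, 2 are not reported here.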

Additional observations from a re-analysis of the deposited data

Results flagged for a closer look

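For 12 members the interaction of genotype and IL-4 in the limma fit was past the adjusted p and 2-fold limits. Values are the knockout response minus the wild-type response in log2 units. It was negative for Cd63 (-3.03), Tbc1d30 (-2.59), Itga7 (-2.33), Msrb3 (-2.10), Gls2 (-1.85), Arhgef25 (-1.58) and C78653 (-1.21). It was positive for Rbms2 (1.03), LOC100504608 (1.25), Cpm (1.62) and the probes of Tespa1 (1.70 and 1.96). With slide as a block, 10 of the 12 stayed past the limits; C78653 gave -1.15 (adjusted p 0.121) and Rbms2 1.00, under 2-fold. The Gls2 value lost its call in 13 of 22 alternatives (adjusted p up to 0.111), 8 of them with 1 array left out, and that of C78653 in 15 of 23. The values of Itga7, Msrb3 and LOC100504608 are not measured differences in response. Itga7 was kept through the wild-type IL-4 arrays alone, and Msrb3 was below background in both knockout groups. LOC100504608 had no wild-type IL-4 array well above background, so its fall in wild type was at least 1.30-fold. Its call was lost with normexp and with the authors' deposited values.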

How the results depend on the processing

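The counts of called members (9 without IL-4, 12 with IL-4, 5 in both, 12 for the interaction, 11 and 6 for the IL-4 response in wild type and knockout) stayed within 1.5 times under quantile and median scaling, other variance settings, only the compared arrays, no filter, 1 probe per gene and slide as a block. In the same order they were 0, 7, 0, 6, 6 and 0 with normexp and an offset of 50, which shrinks differences of dim probes. All 9 members called without IL-4 and all 12 called with it then still passed the adjusted p, with differences without IL-4 of 0.345 to 0.966 in size. They were 2, 7, 1, 5, 5 and 0 with the authors' deposited gene-level values, and 8 of the 9 passed the adjusted p there; Ppm1h, whose probes are joined in that file, turned to 0.082 (adjusted p 0.426). With only probes bright on all 12 arrays the genotype counts were 2, 5 and 0, and the count for the knockout response was 3. By adjusted p alone they were 36, 70, 14, 55, 67 and 70, against 2133, 11201, 658, 9623, 12697 and 9082 of all probes. Over the whole array, 238 probes were called without IL-4, 123 with normexp, 105 with the authors' values, 153 with bright probes only, 96 without a filter and 101 with slide as a block. Leaving out each array in turn gave 6 to 9, 12 to 13, 4 to 6, 9 to 12, 11 to 12 and 4 to 6 members. Median scaling moved the median of all probes without IL-4 from -0.04 to -0.22 and kept 8 members called. Same-numbered samples correlated at -0.23 to 0.36. With 3 samples per group this cannot settle whether the numbers pair samples, and the main fit did not pair them. A replicate block gave 8 members without IL-4 and 12 with it. Over 50 called results of members, 1178 alternatives gave the same call in 1037, a weaker one in 140 and the opposite sign in 1. Among them is the main fit without a fold minimum, which keeps each call by construction. A setting that leaves a probe out, such as the filter for probes bright on all 12 arrays, was not counted for it. On that count 19 results kept their call throughout. The spread of 3 arrays and the background limit what can be said of dim probes.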
